A study of Homo sapiens with 12 samples.

Results

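H3K27ac peaks were examined around 7 chemokine genes: the CXCL cluster on chromosome 4 (CXCL8, CXCL6, CXCL1, CXCL5, CXCL3 and CXCL2) and CCL20 on chromosome 2. All peaks were taken from 50 kb outside the outermost CXCL gene, chr4:73690519-74149196 (hg38), and within 50 kb of any annotated CCL20 start, chr2:227755739-227865369. The 20000 highest-scoring peaks of each library merged into 38598 regions, of which 14 lay in these windows, 10 in the CXCL cluster and 4 around CCL20. The windows were set by position and by no measured value, but the members were chosen with earlier results of these data known. A region entered only through a peak among the 20000 highest of any library.

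The cells were HCT116, an established human colorectal carcinoma line, profiled by CUT&RUN, in which an antibody directs a nuclease to marked chromatin and the released fragments are sequenced. The 6 H3K27ac libraries comprised 2 from untreated cells, 2 from cells given 1 μM cobimetinib, an inhibitor of the MAPK kinase MEK1, for 24 hours and 2 from cells given TNFα at 100 ng/ml for 24 hours. The labels name no vehicle for the untreated cells. The methods call the libraries treatment replicates and do not say whether these were separate cultures, so p-values measure only the spread between these libraries, which may be technical. The comparisons ask how H3K27ac at these genes differed when MAPK signaling was inhibited or when cells were exposed to an inflammatory cytokine.

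Chemokines are secreted proteins that guide the migration of leukocytes. The CXCL members here share the receptor CXCR2, CXCL8 and CXCL6 also bind CXCR1, and together they draw neutrophils to inflamed epithelium. CCL20 binds CCR6 and draws dendritic cells and subsets of lymphocytes to mucosal surfaces. TNFα activates NF-κB, and MAPK signaling feeds the AP1 family of factors; both families are known regulators of these genes. Acetylation of histone H3 at lysine 27 marks active promoters and enhancers.

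The promoters were set side by side because the CXCL genes arose by duplication and share a short motif. The 7 sequences come from RefSeq (GRCh38.p14) and run from 150 to 51 bases before the RefSeq start, written 5′ to 3′ on the gene's own strand. Capitals mark the AP1 words TGAGTCA or TGACTCA, the word GGAATTTCC and the NF-κB consensus.
CXCL8, chr4:73740419-73740518, plus strand: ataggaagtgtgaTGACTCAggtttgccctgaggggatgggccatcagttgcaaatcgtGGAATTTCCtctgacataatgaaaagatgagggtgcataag
CXCL6, chr4:73836528-73836627, plus strand: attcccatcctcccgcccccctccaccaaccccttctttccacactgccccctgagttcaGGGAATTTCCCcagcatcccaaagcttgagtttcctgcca
CXCL1, chr4:73869243-73869342, plus strand: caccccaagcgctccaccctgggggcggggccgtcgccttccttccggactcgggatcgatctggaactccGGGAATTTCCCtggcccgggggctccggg
CXCL5, chr4:73998728-73998827, minus strand: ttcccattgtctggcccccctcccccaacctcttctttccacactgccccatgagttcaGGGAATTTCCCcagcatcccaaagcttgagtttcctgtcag
CXCL3, chr4:74038740-74038839, minus strand: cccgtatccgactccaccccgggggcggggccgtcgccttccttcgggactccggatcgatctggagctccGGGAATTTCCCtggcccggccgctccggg
CXCL2, chr4:74099246-74099345, minus strand: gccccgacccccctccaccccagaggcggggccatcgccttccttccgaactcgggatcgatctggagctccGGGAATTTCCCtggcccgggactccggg
CCL20, chr2:227813692-227813791, plus strand: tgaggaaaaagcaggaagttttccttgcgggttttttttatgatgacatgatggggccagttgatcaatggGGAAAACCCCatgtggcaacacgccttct
GGAATTTCC occurred on either strand in all 6 CXCL promoters, starting between 91 and 77 bases before the start, against 0.461% of 35116 RefSeq promoters (250 bases before to 50 after the start). The NF-κB consensus, which overlaps that word, was found in 5 of the 6 CXCL promoters, all but CXCL8, and in CCL20, against 5.91% of all promoters. CXCL8 alone of the 7 held an AP1 word, TGACTCA at position -137, against 4.95% of all promoters. TATAAA was found in CXCL8 and CCL20, against 11.5%. Over the 250 bases before the start, CXCL6 and CXCL5 were 85.3% identical, CXCL1 and CXCL3 81.4%, and CXCL3 and CXCL2 73.4%. The 6 CXCL promoters were set side by side for a shared motif and arose by duplication, so they are not separate cases. Enrichment was not tested. These words describe the letters and do not show binding. Within 1 kb of the starts, 2.65% of 150-base words at CXCL6 and 1.57% at CXCL3 and CXCL2 recurred elsewhere in the windows, and 0% at the other 4 genes. Only exact matches inside the windows were counted, so shorter or mismatched reads from a paralog were not assessed.

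Values below are ranks. A peak's score rises with sequencing depth, so peaks were compared by rank within their own library, from 1 for the highest score, and tied scores took their mean rank. The lists held from 69813 to 124771 peaks. Untreated replicate 2 stood apart: the median width of its 20000 highest peaks was 380 bp, against 922 to 1265.5 bp in the other 5 libraries, and its peak names mark it as merged after resequencing. Differences from untreated cells rest on it, and the rank differences printed against untreated cells are also given without it. As a check of the cell type, the epithelial genes KRT8, ELF3 and GRHL2 had a start-site region held by the 20000 highest peaks of all 6 libraries, EPCAM of 5, CDX2 of 4, KRT18 of 3, CDH1 of 2 and KRT19 of 1. The leukocyte genes PTPRC, CD3E, CD14 and LYZ had one in 0 libraries.

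Most of the CXCL window held little H3K27ac. The deposited peaks of both windows merged into 73 regions, and 54 of them came from a single library. A peak was found in all 6 libraries at 8 places, 6 in the CXCL cluster and 2 around CCL20. In the bulk population, fewer cells with the mark and less mark per cell cannot be told apart. The libraries held 20 and 36 peaks in both windows together when untreated, 26 and 16 with cobimetinib, and 26 and 21 with TNFα. Among the 20000 highest peaks these were 7 and 8, 7 and 6, and 10 and 11, so that only the strong peaks were more numerous in both TNFα libraries than in the other 4. Acetylation was concentrated at both ends of the cluster, around CXCL8 on one side and from CXCL3 to beyond CXCL2 on the other.

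**Figure D1:**
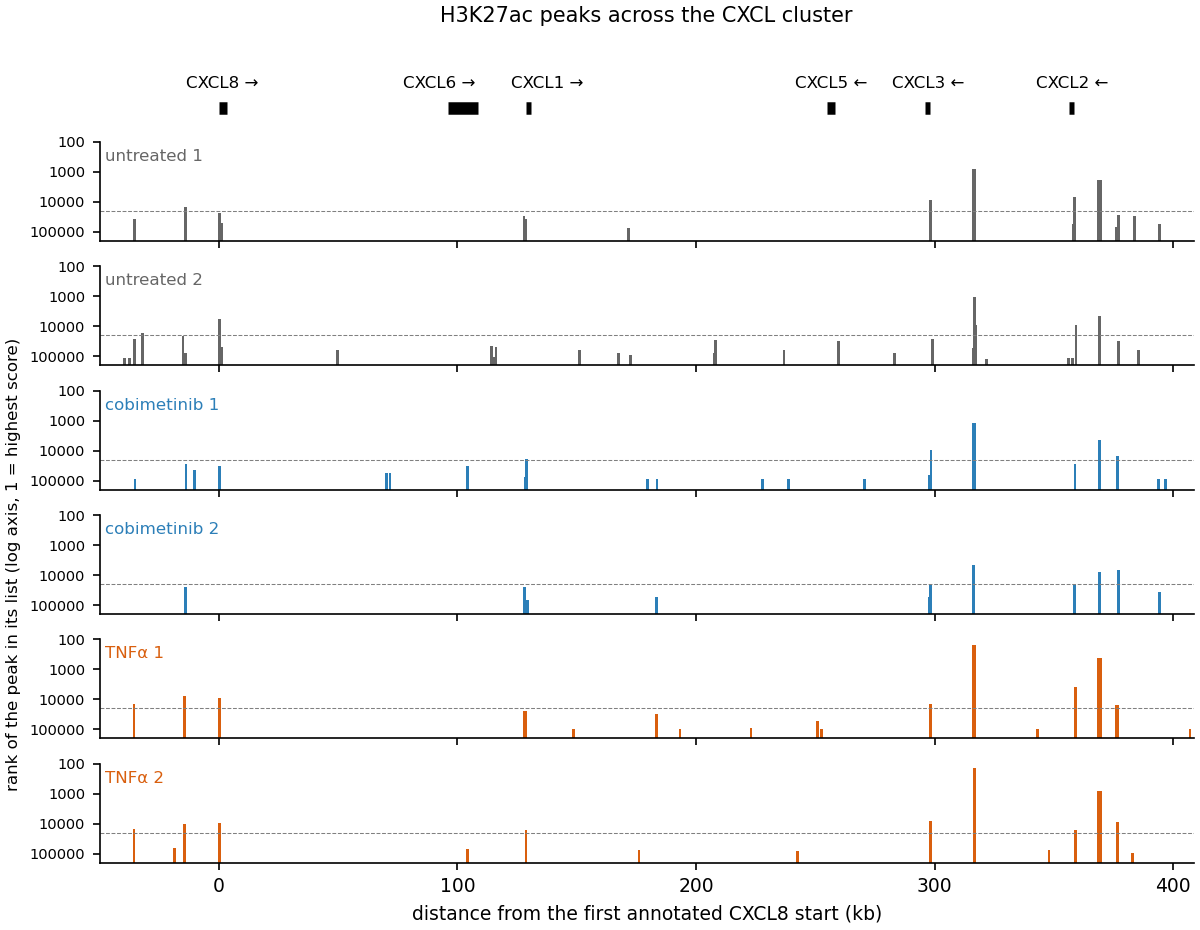
Peaks of each library across the CXCL cluster. The x axis is the distance in kb from the first CXCL8 start and each bar is a peak, rising from rank 200000 to its rank on a log axis; the dashed line is rank 20000, black blocks are genes and arrows their strand. The peaks between CXCL3 and CXCL2 and beyond CXCL2 reach nearest the top of the list in every library, at ranks 134.5 and 149.5 in the TNFα libraries.

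Among the genes, CXCL2, CXCL3, CXCL8 and CXCL1 had a peak within 1 kb of a start, whereas CXCL6, CXCL5 and CCL20 had none in any library. By the same rule, 14933 of 20046 protein-coding genes had such a peak in at least 1 library. At the CXCL8 start (chr4:73740154-73741196), the ranks were 22702 and 5822.5 in untreated cells, 32909 and no peak with cobimetinib, and 9089 and 9625.5 with TNFα. Both TNFα libraries ranked ahead of both cobimetinib libraries, while the untreated libraries lay on either side of the TNFα values. The difference in −log2 rank, on which a positive value means nearer the top of the list and a missing peak counts as rank 60000, was 2.25 ± 0.85 (SE) between TNFα and cobimetinib, with a limma adjusted p of 0.284. Cobimetinib differed from untreated cells by -1.95 ± 0.85 (limma adjusted p = 0.496), a value that became -0.97 without untreated replicate 2 and -2.93 without untreated replicate 1. Where all weak or missing peaks were set to rank 20000, the differences were 1.10 for TNFα against cobimetinib and -0.89 for cobimetinib against untreated cells.

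The start of CXCL2, a neutrophil attractant, lies in a region (chr4:74098713-74100132) that also overlaps an exon of the gene ENSG00000289241. That region ranked 6780 and 8823 in untreated cells, 27934.5 and 19222.5 with cobimetinib, and 3965 and 16379 with TNFα. Both cobimetinib libraries ranked behind all 4 others. The difference between cobimetinib and untreated cells was -1.58 ± 0.85 (limma adjusted p = 0.582), and -1.77 without untreated replicate 2. TNFα and untreated cells differed by -0.06, less than the SD of 0.88 between replicates, and by -0.25 without untreated replicate 2. At the CXCL3 start (chr4:74038216-74039433) the ranks were 8689.5 and 26242 untreated, 9807.5 and 20099.5 with cobimetinib, and 13926 and 7836 with TNFα. The 3 groups overlapped there, and all 3 differences lay between 0.11 and 0.53, below the SD of 0.85 between replicates. Without untreated replicate 2 the differences from untreated cells turned to -0.27 for TNFα and -0.69 for cobimetinib, still below that SD.

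CXCL1, a further CXCR2 ligand, had the weakest of the 4 marked starts (chr4:73868717-73869616). Its best peak ranked 36734 and absent in untreated cells, 18279 and 24638.5 with cobimetinib, and 24212.5 and 15725.5 with TNFα. All 4 treated libraries ranked ahead of both untreated ones, but neither the difference for TNFα (1.27 ± 0.80, limma adjusted p = 0.692) nor that for cobimetinib (1.15 ± 0.80, limma adjusted p = 0.609) passed the test. No untreated library held this region among its 20000 highest peaks, so it entered only through cobimetinib replicate 1 and TNFα replicate 2. The SD between replicates was 0.42 at this start. The differences were 0.91 and 0.79 without untreated replicate 2, and 0.17 and 0.06 where all weak or missing peaks were set to rank 20000. Averaged over the 6 libraries on the log2 scale, the starts ranked in the order CXCL2 (13.5), CXCL3 (13.7), CXCL8 (14.0) and CXCL1 (14.7). The steps from CXCL2 to CXCL3 and from CXCL3 to CXCL8 were smaller than the SDs between replicates of these starts, from 0.85 to 0.88. The step from CXCL8 to CXCL1 lay between the SD of 0.88 at CXCL8 and that of 0.42 at CXCL1. These are ranks of a score, not levels per length.

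The start-site pattern of CXCL8 over the 6 libraries was most like those of TPM4, CLCF1, the protein-coding locus ENSG00000256514 that shares the CLCF1 start, DGCR8 and EIF4B. Likeness was the Euclidean distance between centred log2 ranks, from 1.11 for TPM4 to 1.23 for EIF4B. At the TPM4 start the ranks were 1860.5 and 1040.5 untreated, 5102.5 and 5863.5 with cobimetinib, and 1076.5 and 1865.5 with TNFα. As at CXCL8, both cobimetinib libraries were behind the other 4. CCL20 has no start-site peak and therefore no such pattern.

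The strongest H3K27ac of the cluster lay away from the starts, in an intergenic region between CXCL3 and CXCL2, chr4:74056063-74057816, 17256 bp upstream of the nearest CXCL3 start and called CXCL3 −17 kb here. Its best peak ranked 768.5 and 1040.5 in untreated cells, 1241.5 and 4590 with cobimetinib, and 149.5 and 134.5 with TNFα. The groups did not overlap and stood in the order TNFα, untreated, cobimetinib. TNFα and cobimetinib differed by 4.07 ± 0.99 (limma adjusted p = 0.0516), just short of the threshold of 0.05. The difference between TNFα and untreated cells was 2.66 ± 0.99 (limma adjusted p = 0.600), and 2.44 without untreated replicate 2. Cobimetinib and untreated cells differed by -1.42 ± 0.99 (limma adjusted p = 0.609), which was -1.64 without untreated replicate 2, -0.47 without cobimetinib replicate 2 and -2.36 without cobimetinib replicate 1.

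The span covered by peaks there did not follow the ranks. Peaks covered 1579 and 1218 bp in untreated cells, 1754 and 1373 bp with cobimetinib, and 1678 and 1320 bp with TNFα, so that the groups overlapped. Both AP1 words of the region lay inside a peak in all 6 libraries.

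A second distal region, chr4:74108508-74110910, stood 9312 bp upstream of CXCL2 and 3264 bp from MTHFD2L, a mitochondrial folate enzyme gene, and is called CXCL2 −9 kb here. Its ranks were 1800 and 4526.5 untreated, 4344 and 7893.5 with cobimetinib, and 406 and 789.5 with TNFα. Both TNFα libraries were ahead of the other 4, and the untreated and cobimetinib libraries overlapped. TNFα and cobimetinib differed by 3.37 ± 0.90 (limma adjusted p = 0.0815), and TNFα and untreated cells by 2.33 ± 0.90 (limma adjusted p = 0.637), which was 1.67 without untreated replicate 2.

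Here the covered span went with the ranks. Peaks covered 2002 and 1521 bp in untreated cells, 1102 and 1264 bp with cobimetinib, and 2075 and 2403 bp with TNFα. The 3 groups did not overlap. The width difference between TNFα and cobimetinib was 0.87 ± 0.25 on the log2(bp + 100) scale (limma adjusted p = 0.411).

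Around CXCL8, 2 upstream regions were marked in several libraries, called CXCL8 −14 kb and CXCL8 −35 kb here. The region 13866 bp upstream (chr4:73725420-73726653) ranked 15294 and 75834.5 untreated, 27934.5 and 24638.5 with cobimetinib, and 7912.5 and 9796 with TNFα, and the region 35494 bp upstream (chr4:73704307-73705025) ranked 35737 and 26242, then 84546.5 and no peak, then 14274 and 14770.5. In both, the TNFα libraries ranked ahead of the other 4. The nearer region held 1 AP1 word and 1 NF-κB consensus word. TNFα and cobimetinib differed by 1.58 ± 0.84 at the nearer region (limma adjusted p = 0.502) and by 2.05 ± 0.79 at the farther one (limma adjusted p = 0.298).

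The farther CXCL8 region and the region upstream of CXCL2 resembled each other in sequence. All 719 bp of the former aligned to chr4:74108820-74109571 in the latter, 404.2 kb away, at 77.4% identity over 762 columns (blastn). The stretch with both AP1 words, 115 bp, matched only those 2 places in hg38 at an E-value limit of 1e-05, with 87.6% identity between them. The distal sequences are shown with 30 bases on each side of the outermost words. Capitals mark AP1 words and, for CCL20, the NF-κB consensus, and TGAGTCA and TGACTCA stand 48 bp apart in both copies.
CXCL8 −35 kb, chr4:73704632-73704746, plus strand: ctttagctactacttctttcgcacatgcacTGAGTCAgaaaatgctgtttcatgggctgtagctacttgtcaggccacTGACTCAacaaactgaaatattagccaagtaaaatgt
CXCL2 −9 kb, chr4:74109047-74109274, plus strand: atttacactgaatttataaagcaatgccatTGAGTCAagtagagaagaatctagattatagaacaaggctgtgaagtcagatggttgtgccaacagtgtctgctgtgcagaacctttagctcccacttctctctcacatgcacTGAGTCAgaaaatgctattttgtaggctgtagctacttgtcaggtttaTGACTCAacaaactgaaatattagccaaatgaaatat
CXCL3 −17 kb, chr4:74056741-74057011, plus strand: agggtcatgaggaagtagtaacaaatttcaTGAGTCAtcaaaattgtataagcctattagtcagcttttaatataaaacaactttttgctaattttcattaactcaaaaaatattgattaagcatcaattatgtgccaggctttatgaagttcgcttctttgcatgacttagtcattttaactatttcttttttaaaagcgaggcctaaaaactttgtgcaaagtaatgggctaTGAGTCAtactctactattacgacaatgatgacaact
CCL20 3′ end, chr2:227818025-227818094, plus strand: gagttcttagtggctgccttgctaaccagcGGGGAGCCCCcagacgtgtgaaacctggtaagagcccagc
The AP1 words of the farther CXCL8 region lay inside a peak in both untreated and both TNFα libraries and in neither cobimetinib library. In the CXCL2 copy the first word was covered in the same 4 libraries, the second in 5 and the third in all 6. For comparison, an AP1 word was found in 46.0% of windows of 2403 bp centred on all 38598 regions, and in 40.6% of windows of 1754 bp. No such share was taken for windows of 719 bp. The CXCL1, CXCL3 and CXCL2 start regions also aligned to one another, at 81.0% to 91.7% identity, as did 242 bp of the nearer CXCL8 region to the region 17042 bp upstream of CXCL2, at 68.8%.

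That last region, chr4:74116238-74117971, lies in an intron of MTHFD2L and is called CXCL2 −17 kb here. It ranked 27497 and 31498 in untreated cells, 14678.5 and 7041 with cobimetinib, and 15449.5 and 8591.5 with TNFα. All 4 treated libraries ranked ahead of both untreated ones, and the 2 treatments overlapped. The region held 1 AP1 word, which lay inside a peak in all 6 libraries. The differences from untreated cells were 1.53 ± 0.82 for cobimetinib (limma adjusted p = 0.578) and 1.35 ± 0.82 for TNFα (limma adjusted p = 0.692), and 1.44 and 1.26 without untreated replicate 2. The remaining CXCL region, chr4:73707855-73708118 in an intron of the noncoding gene ENSG00000289530, was found in untreated replicate 2 only, at rank 16075.5.

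**Figure D2:**
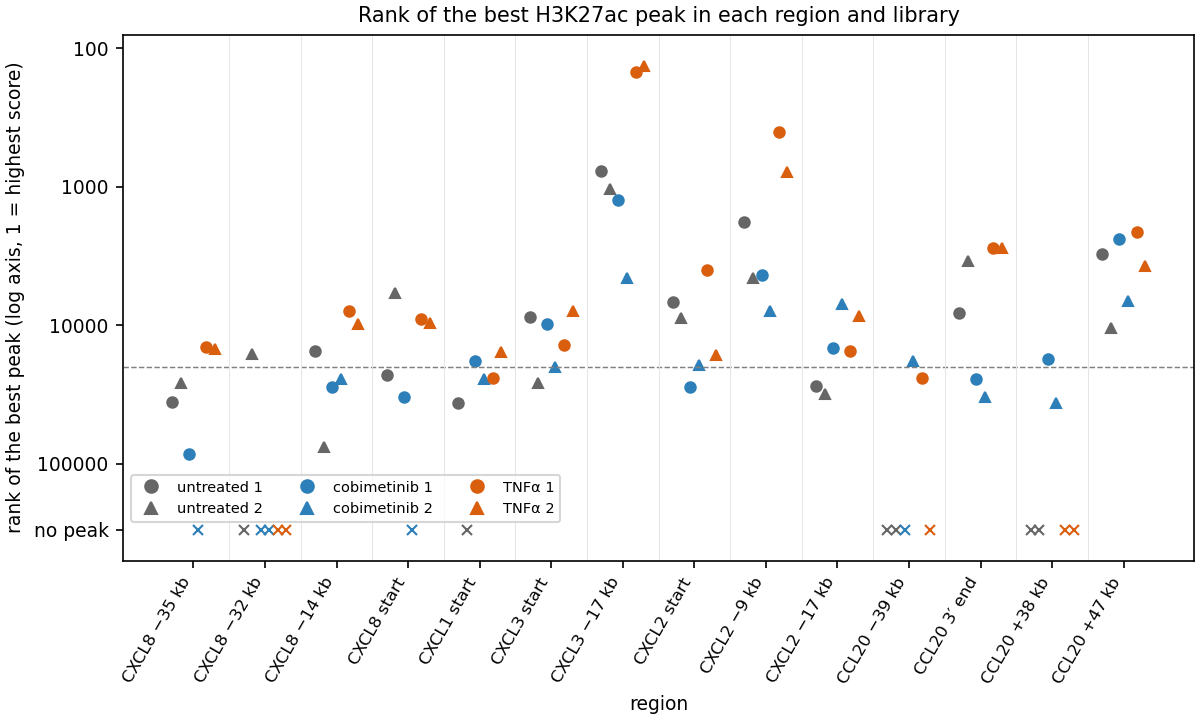
Rank of the best peak in each of the 14 regions and 6 libraries, on a log axis with rank 1 at the top. Circles are replicate 1, triangles replicate 2, crosses libraries with no peak, and the dashed line is rank 20000. The TNFα libraries lie above the cobimetinib libraries at CXCL3 −17 kb, CXCL2 −9 kb, the CCL20 3′ end, the CXCL8 and CXCL2 starts and both marked regions upstream of CXCL8.

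Around CCL20 no start held a peak in any library, and the mark lay at the end of the gene and beyond. The nearest region, called CCL20 3′ end here, chr2:227817452-227818995, covers the last bases of the 3′ UTR and extends downstream, 2083 bp past the nearest annotated start. It ranked 8197.5 and 3457.5 in untreated cells, 24602.5 and 32957.5 with cobimetinib, and 2777 and 2782.5 with TNFα. The groups did not overlap, and cobimetinib stood behind the other 4 libraries.

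TNFα and cobimetinib differed there by 3.36 ± 0.83 (limma adjusted p = 0.0543). Cobimetinib and untreated cells differed by -2.42 ± 0.83 (limma adjusted p = 0.358), which was -1.80 without untreated replicate 2. It was -3.04 without untreated replicate 1, where the replicate that stands apart is the only untreated library. The adjusted p of that comparison ranged up to 0.675 over the libraries left out. The region held no AP1 word and 1 NF-κB consensus word, which was covered by a peak in all 6 libraries and is found in 20.6% of windows of 1544 bp.

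The other strong CCL20 region, chr2:227862204-227863614, was intergenic, 46835 bp from the nearest CCL20 start and 7440 bp from DAW1. It ranked 3070.5 and 10539.5 untreated, 2397 and 6744 with cobimetinib, and 2131 and 3730.5 with TNFα. The 3 groups overlapped. This region held 2 AP1 words and 1 NF-κB consensus word. The weaker regions chr2:227766174-227766459 and chr2:227853239-227853551 were found in 2 libraries each, the first in cobimetinib replicate 2 and TNFα replicate 1, the second in both cobimetinib libraries at ranks 17447 and 36157. Each entered the regions only through a cobimetinib library.

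**Figure D3:**
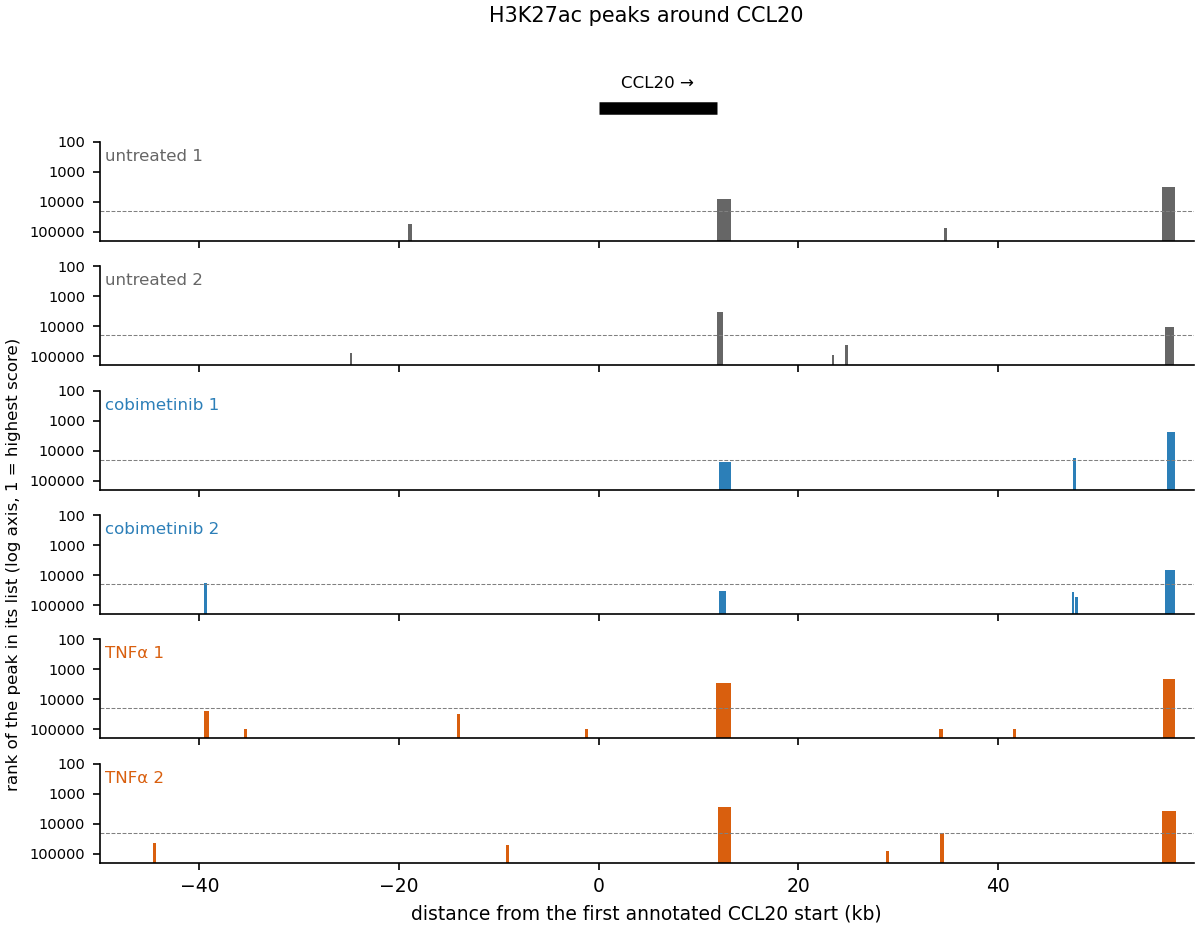
Peaks of each library within 50 kb of the CCL20 starts, drawn as for the CXCL cluster with distance in kb from the first CCL20 start. The peak at the end of the gene ranks 24602.5 and 32957.5 in the cobimetinib libraries and ahead of rank 10000 in the other 4, while the peak near +57 kb overlaps between groups.

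Tested across all regions, no region of these windows passed the threshold by rank or by width. By rank, limma called 0 of 14 for TNFα against untreated cells, where 0.0700% of all regions were called, 0 for cobimetinib against untreated cells, where 0.0207% were called, and 0 for TNFα against cobimetinib, where 0.790% were called. At an unadjusted p under 0.05 the counts were 3, 2 and 5 of 14, beside 6.52%, 9.26% and 11.2% of all regions. By width, limma called 0 of 14 and 0% of all regions in each of the 3 comparisons, and 0, 1 and 3 of 14 had an unadjusted p under 0.05, beside 3.29%, 4.37% and 7.47% of all regions.

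The median rank difference of the 14 regions was 0.98 for TNFα against untreated cells, -0.42 for cobimetinib against untreated cells and 1.02 for TNFα against cobimetinib, whereas the median of all regions was 0 in each. The difference was above 0 at 12, 7 and 10 of the 14 regions, beside 50.9%, 48.7% and 44.4% of all regions. Without untreated replicate 2 the medians against untreated cells were 0.85 for TNFα and -0.72 for cobimetinib, beside 0 over all regions, with 10 and 4 of the 14 above 0, beside 35.9% and 38.0%. By width the medians were 0.60, 0.16 and 0.37, beside 0.13, 0.16 and 0 over all regions. Each pair of comparisons shares 1 group, so they do not count as separate support.

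**Figure D4:**
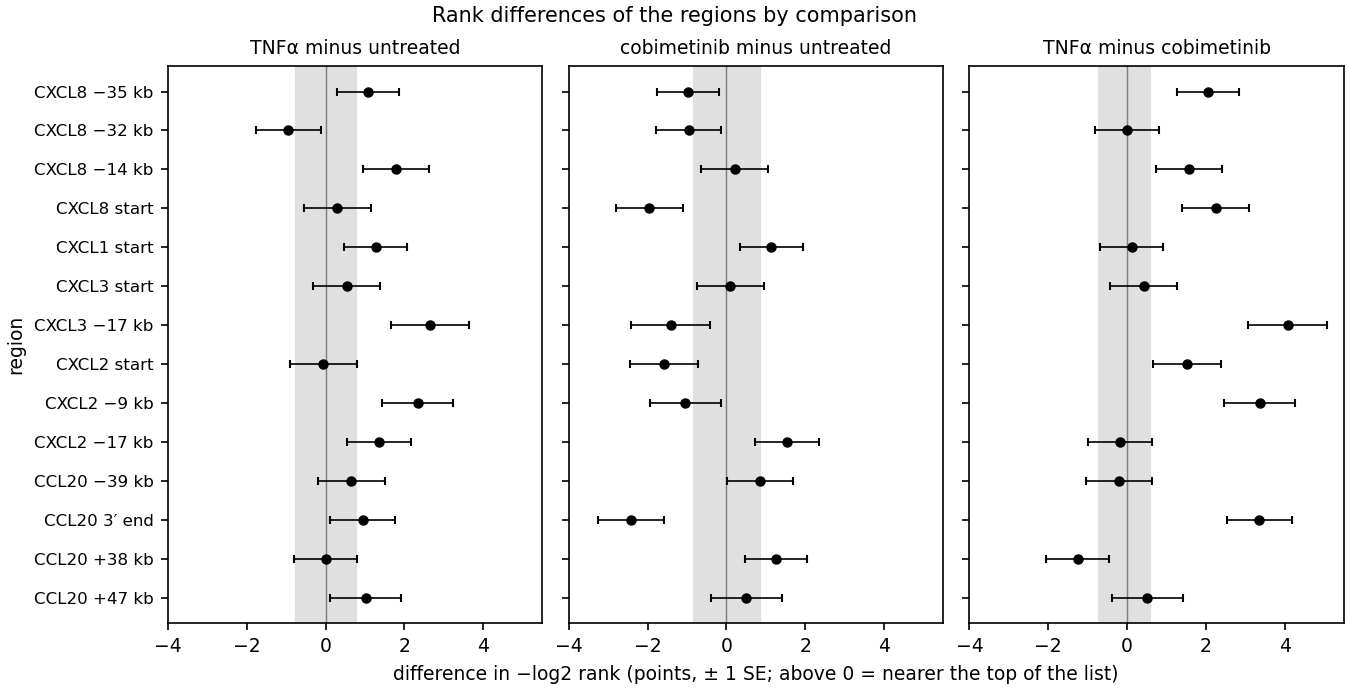
Rank differences of the 14 regions in the 3 comparisons, in −log2 rank with 1 SE from limma. The grey band is the middle 50% of all 38598 regions, and the regions at CXCL3 −17 kb, CXCL2 −9 kb and the CCL20 3′ end are farthest to the right in the panel of TNFα minus cobimetinib, at 4.07, 3.37 and 3.36.

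In order among libraries, both TNFα libraries ranked ahead of both cobimetinib libraries at 7 of 14 regions, against 19.7% of all regions, and ahead of both untreated libraries at 7, against 16.5%. Both untreated libraries were ahead of both cobimetinib libraries at 5, against 10.5%, and the reverse held at 3, against 19.0%. The last 3, the CXCL1 start, CXCL2 −17 kb and chr2:227853239-227853551, entered the regions only through treated libraries. Of the 7 with TNFα ahead of untreated cells, CXCL8 −35 kb, the CXCL1 start and CXCL2 −17 kb also had no untreated entry. The full order TNFα, untreated, cobimetinib was seen at 3 regions, CXCL8 −35 kb, CXCL3 −17 kb and the CCL20 3′ end, against 1.70% of all regions. Of these, CXCL8 −35 kb entered the regions only through the TNFα libraries. Set against untreated replicate 1 alone, the counts were 8 with both TNFα libraries ahead (21.3% of all regions), 8 with both cobimetinib libraries behind (31.1%), 3 with both cobimetinib libraries ahead (23.6%) and 6 in the full order (6.90%).

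By presence among the 20000 highest peaks, 4 regions were held by both TNFα libraries and neither cobimetinib library: the CXCL8 start, both marked regions upstream of CXCL8 and the CCL20 3′ end. The share over all regions was 5.41%. The reverse was seen at 0 regions, against 4.39%. TNFα gained 2 regions relative to untreated cells, CXCL8 −35 kb and CXCL2 −17 kb (3.56% of all regions), and lost 0 (1.00%). CXCL8 −35 kb was held by the TNFα libraries alone, so it entered the regions only through the group where it ranked highest. CXCL2 −17 kb was held by all treated and no untreated libraries, so it too entered only through groups where it ranked higher. Cobimetinib lost 1, the CCL20 3′ end (1.60%), and gained 1, CXCL2 −17 kb (3.92%). Without untreated replicate 2, TNFα gained 3 regions, against 4.40% of all regions, and cobimetinib lost 2, against 8.33%. Among all deposited peaks, however weak, 0 regions were gained with TNFα, 0 were lost with cobimetinib and 0 separated TNFα from cobimetinib.

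The span of strong peaks in the CXCL window was larger in both TNFα libraries than in the other 4. The 20000 highest peaks covered 6553 and 3921 bp in untreated cells, 5340 and 4236 bp with cobimetinib, and 10650 and 10327 bp with TNFα. The exact permutation p was 0.333 for TNFα against either group, the smallest that 2 libraries against 2 allow, and 1 for cobimetinib against untreated cells. Counted over all peaks and relative to the span of all peaks of the library, the window held 214 and 277 bp per Mb in untreated cells, 212 and 210 with cobimetinib, and 276 and 284 with TNFα, so that untreated replicate 2 reached the TNFα values. Around CCL20, all peaks covered 3266 and 2018 bp untreated, 2407 and 2516 bp with cobimetinib, and 4375 and 3754 bp with TNFα.

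Related genes outside the set were mostly unmarked or did not pass the test. PF4, PF4V1 and PPBP, platelet chemokines of the same cluster, had 0 of 3 starts in a region, and the receptors CXCR1, CXCR2, CCR6 and ACKR1 had 0 of 4. The share of all genes with a start in a region was not taken, for these or for the counts that follow. Of 14 other chemokines, 1 had a marked start, CXCL16, a transmembrane chemokine, with differences of 1.20 for TNFα and 1.14 for cobimetinib against untreated cells, which were 0.37 and 0.31 without untreated replicate 2. All 18 genes of the relay from the TNF receptor to NF-κB had a marked start, and limma called 0 of them by rank in any comparison. Their median difference was 0.77 for TNFα against untreated cells, 0.70 for cobimetinib against untreated cells and -0.08 for TNFα against cobimetinib. Without untreated replicate 2 the first pair became -0.02 and -0.18, so that their direction rests on that library.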

How the data were processed

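H3K27ac CUT&RUN peak lists of 6 HCT116 libraries were used. The 6 IgG libraries are not analysed here. Per the study's methods, the authors trimmed reads with BBDuk, aligned them to hg38 with BWA 0.7.15 (version from the submitters' processing notes) and removed reads of low mapping quality. They called peaks with MACS2 2.1.1 in each library at p 0.01 without an IgG background, in paired-end and single-end mode, and merged both lists with bedtools, taking the maximum score. The fifth column, deposited as a whole-number score, was the value used; read counts and depth are unknown from these lists, so scores were compared only as ranks within a library, and the count model of the study could not be fitted.

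The 20000 highest peaks of each library were merged within 100 bp. A region took the rank of its best peak in each library, and ranks beyond 60000 or missing peaks were set to 60000. This lowest rank entered 7 of the 14 regions in at least 1 library. limma 3.58.1 (R 4.3.3, empirical Bayes with trend) was fitted to −log2 rank and to log2(covered bp + 100) over all 38598 regions and 6 libraries, with Benjamini-Hochberg adjustment at 0.05. The code was tested on simulated data. The rule for named genes took all 7 members at their starts, regions called by any contrast, and the 6 regions of best mean rank; the remaining regions were described after their values were seen, and other genes came from named lists. The result of 1 marker gene is not reported here. The members and lists were chosen with earlier results of these data known. Genes came from GENCODE release 44 (hg38), promoters from RefSeq, alignments from BLAST+ 2.17.0 and Biopython 1.88, and sequences by coordinate from hg38 with samtools 1.23.1. Alternatives were other numbers of peaks, lowest ranks, window sizes, overlaps and pseudocounts, leaving out each library and a replicate block.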

Additional observations from a re-analysis of the deposited data

How the results depend on the processing

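Depth is unknown and each group held 2 libraries, so the presence counts have no test and the exact permutation tests could not pass 0.05. In fits of all 6 libraries, the windows held no region called by rank for TNFα against cobimetinib in any alternative except these. With ranks taken among merged regions 1 was called, against 1.20% of all regions. From the 10000 or the 40000 highest peaks, which were merged anew into other regions, 2 were called, against 1.37% and 0.496%. Without the trend 2 were called (0.917%), and with a replicate block 3 (2.00%). The deviations of same-numbered replicates correlated weakly over all regions (0.026, 0.102 and 0.058), which cannot show whether these libraries were prepared together. The block raised the calls over all regions from 27, 8 and 305 to 305, 475 and 771. With the block the adjusted p in limma was 0.00502 for CXCL3 −17 kb, 0.0106 for the CCL20 3′ end and 0.0182 for CXCL2 −9 kb; over the libraries left out and the fit of the TNFα and cobimetinib libraries alone, added after seeing the data, it ranged from 0.13 to 0.566, from 0.0703 to 0.559 and from 0.161 to 0.521.

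Leaving out 1 library gave 0 to 1 called regions by rank for TNFα against cobimetinib and 0 to 3 for each treatment against untreated cells; by width it gave 0 to 5 for each treatment against untreated cells. All of these nonzero counts came without untreated replicate 1, which leaves the replicate that stands apart as the lone untreated library, assumed to vary like the other groups, and 9812, 10058 and 327 of all regions were then called by rank, and 14708, 15351 and 1401 by width. Without untreated replicate 2, 371, 374 and 0 of all regions were called by rank and 363, 390 and 239 by width. Without a TNFα or a cobimetinib library, 0 regions were called by rank in any comparison. The counts over all regions were 68, 33 and 463 by rank among merged regions, 246, 299 and 520 from the 40000 highest peaks, 7, 1 and 259 from the 10000 highest, 7, 2 and 181 with weak peaks at rank 40000, 0, 0 and 0 at rank 20000, 3, 0 and 125 for regions with a peak in all 6 libraries, and 29, 13 and 354 without the trend. The cause was not tested. Windows of 25 or 100 kb and the width alternatives, the block among them, changed no call.

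By presence, TNFα gained 1 region among the 10000 highest peaks (4.61% of all regions) and 0 among the 40000 highest (1.64%) or all deposited peaks (1.83%), and 2 to 4 with 1 library left out (4.40% to 15.9%, the latter without untreated replicate 1). Cobimetinib lost 2 among the 10000 highest (3.39%) and 0 among all peaks (1.80%) or where peaks had to cover 50% of the region (0.643%), and 1 to 3 with 1 library left out (2.95% to 22.1%, the latter without untreated replicate 1). Regions in both TNFα but neither cobimetinib library numbered 1 among the 40000 highest peaks (2.53%), 0 among all peaks (3.43%) and 4 to 5 with 1 library left out (7.86% to 11.3%). Of 84 start-site differences under alternatives, 72 moved by less than the spread between replicates and 12 by more. At CXCL8, TNFα against untreated cells was -0.68 without untreated replicate 1 and 1.28 without replicate 2, and at CXCL2 it was -1.08 without TNFα replicate 1 and 0.96 without TNFα replicate 2.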
